A study of Mus musculus with 12 samples.

Results

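The genes described here are the 20 cytosolic aminoacyl-tRNA synthetases and 19 genes of the amino acid response that the transcription factor ATF4 controls. They were chosen by name and make up 39 of the 24475 genes in the deposited expression table. All 39 were found by their symbols. Livers of fed mice were profiled by sequencing polyadenylated RNA, in 6 libraries from wild-type mice (WT, numbered 1 to 6) and 6 from mice without Gcg, the gene of the glucagon precursor (Gcg KO, numbered 7 to 12). The labels give no strain, sex, age, allele design or batch for either group. They do not say that each library came from its own animal, and the p-values therefore cover a spread among libraries that may be technical.

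Expression is given in RPKM, a read density scaled to gene length and sequencing depth, so levels can be set side by side between genes as well as between libraries. A gene was tested where its mean over the 12 libraries was at least 0.5 RPKM. This kept 35 of the 39 genes, all 20 synthetases and 15 of the 19 response genes. Nupr1 lay just inside that limit at a mean of 0.515 RPKM and Pck2 just outside it at 0.433 RPKM. Fold changes are Gcg KO over WT on the log2(RPKM + 0.5) scale, which understates the change of genes of low expression, and carry the standard error (SE) of limma. Adjusted p-values are limma's, two-sided, adjusted by the Benjamini-Hochberg method over all 11347 tested genes, and a gene passed at 0.05.

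Aminoacyl-tRNA synthetases load each tRNA with its amino acid for protein synthesis. When amino acids run short, uncharged tRNA activates the kinase GCN2 (Eif2ak4), and when proteins misfold in the endoplasmic reticulum the kinase PERK (Eif2ak3) is activated. Each phosphorylates the initiation factor eIF2, which lowers general translation but favours translation of the Atf4 mRNA, so the amount of that mRNA is not a measure of ATF4 activity. ATF4 pairs with other basic leucine zipper factors, such as those of the C/EBP family, and induces genes of amino acid synthesis, transport and tRNA charging. In the liver, glucagon raises the uptake and breakdown of amino acids.

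ATF4 and C/EBP factors bind a composite element with the core TGATGNAA, in which N is any base. The windows around this core are shown because ATF4 is known to reach synthetase and response genes alike through such elements. RefSeq promoter windows of 300 bases (250 before to 50 after a transcription start, build GRCm38.p6) were matched by gene identifier for 13 of the 20 synthetases and 18 of the 19 response genes. Cars, Hars, Lars, Nars, Rars, Vars, Wars and Slc7a5 had no entry. On either strand the core was found for 5 of the 13 synthetases and 6 of the 18 response genes, and in 3.97% of all 32851 windows. In the sequences below the core is in capitals with 6 bases on each side, written on the strand that reads TGATGNAA.
Asns: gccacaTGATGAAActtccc
Chac1: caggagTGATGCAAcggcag
Nupr1: cctgtcTGATGCAAtctggc
Trib3: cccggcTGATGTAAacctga
Pck2: agatacTGATGTAActttga
Slc7a11, farther from the start: tgtggcTGATGCAAacctgg
Slc7a11, nearer to the start: gcatgaTGATGCAAattctc
Aars, upstream of the start: ctcggcTGATGCAAtgctca
Aars, downstream of the start: gcgctcTGATGAAAagtgac
Gars: ggtgcaTGATGAAAtagcgc
Iars: tggaggTGATGCAAtactga
Tars: accagcTGATGCAAcgggac
Yars: ctcagcTGATGCAAcccgac
The core of Asns began 23 bases before the start, at chr6:7693225-7693232, and that of Chac1 began 193 bases before it, at chr2:119351049-119351056. Aars carried the core 112 bases before the start, at chr8:111033730-111033737, and again 10 bases after it, at chr8:111033851-111033858. The cyclic AMP response element TGACGTCA, the palindrome bound by CREB downstream of glucagon, was found on either strand for 0 of the 13 synthetases and 1 of the 18 response genes, Ppp1r15a, against 1.79% of all windows. In the other members shown, the core lay between 110 bases before and 22 bases after the start. A match is a description of these letters and not a bound site.

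The libraries were alike in depth, which was estimated from the low values at 10300000 to 15000000 reads each. At that depth 0.5 RPKM on a transcript of 2 kb is worth 10.3 to 15 reads. WT 6, Gcg KO 10 and Gcg KO 12 were highest on the first principal component of all tested genes, at 17.0 to 28.8. The other 9 libraries spread from -21.9 to 6.99, and WT 6 (17.0) lay between Gcg KO 9 (6.99) and Gcg KO 10 (28.3). Results are also given without these 3, a choice made with earlier results of these data known. The targeted gene was listed at 0 in all 12 livers and so checked no label. Among markers of other liver cells, 1 of 6 endothelial genes passed (Lyve1, higher in Gcg KO), against 3.87% of all tested genes. All 6 had positive log2 fold changes (median 0.19), and their summed RPKM was 53.8 to 70.3 in WT and 58.7 to 90.5 in Gcg KO. Of 6 Kupffer cell and 6 stellate cell markers, 0 passed, and the sign was positive for 4 and 5 of them. Kupffer markers summed to 69.0 to 124 RPKM in WT and 83.2 to 126 RPKM in Gcg KO. Of 4 red cell markers 1 passed (Hbb-bs, lower in Gcg KO, adjusted p = 0.0438). All 4 had negative log2 fold changes, and they summed to 164 to 381 RPKM in WT and 191 to 249.5 RPKM in Gcg KO. The part of these cells in the results was not tested. In whole liver, fewer cells of a type and less RNA per cell cannot be told apart.

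Loss of Gcg went with lower mRNA of asparagine synthetase (Asns), of the transcription factor Atf5 and, at the edge of the threshold, of alanyl-tRNA synthetase (Aars). The remaining synthetases, Atf4 itself and most of its targets did not pass. Of 15 tested response genes 2 fell, 0 rose and 13 did not pass. Of 20 synthetases 1 fell, 0 rose and 19 did not pass. Over all tested genes 3.87% passed, 1.92% lower and 1.95% higher in Gcg KO, and 15.7% had an unadjusted p below 0.05. Such a p-value was found for 2 of the 20 synthetases and 4 of the 15 tested response genes. The share of synthetases that passed (5.0%) was near 3.87%, and the share of response genes (13.3%) rests on 2 genes. The median log2 fold change was -0.06 for the synthetases and 0.01 for the response genes, against 0.01 over all tested genes. The groups did not overlap for 3 members, Asns, Atf5 and Aars, and for 3.09% of all tested genes.

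**Figure D1:**
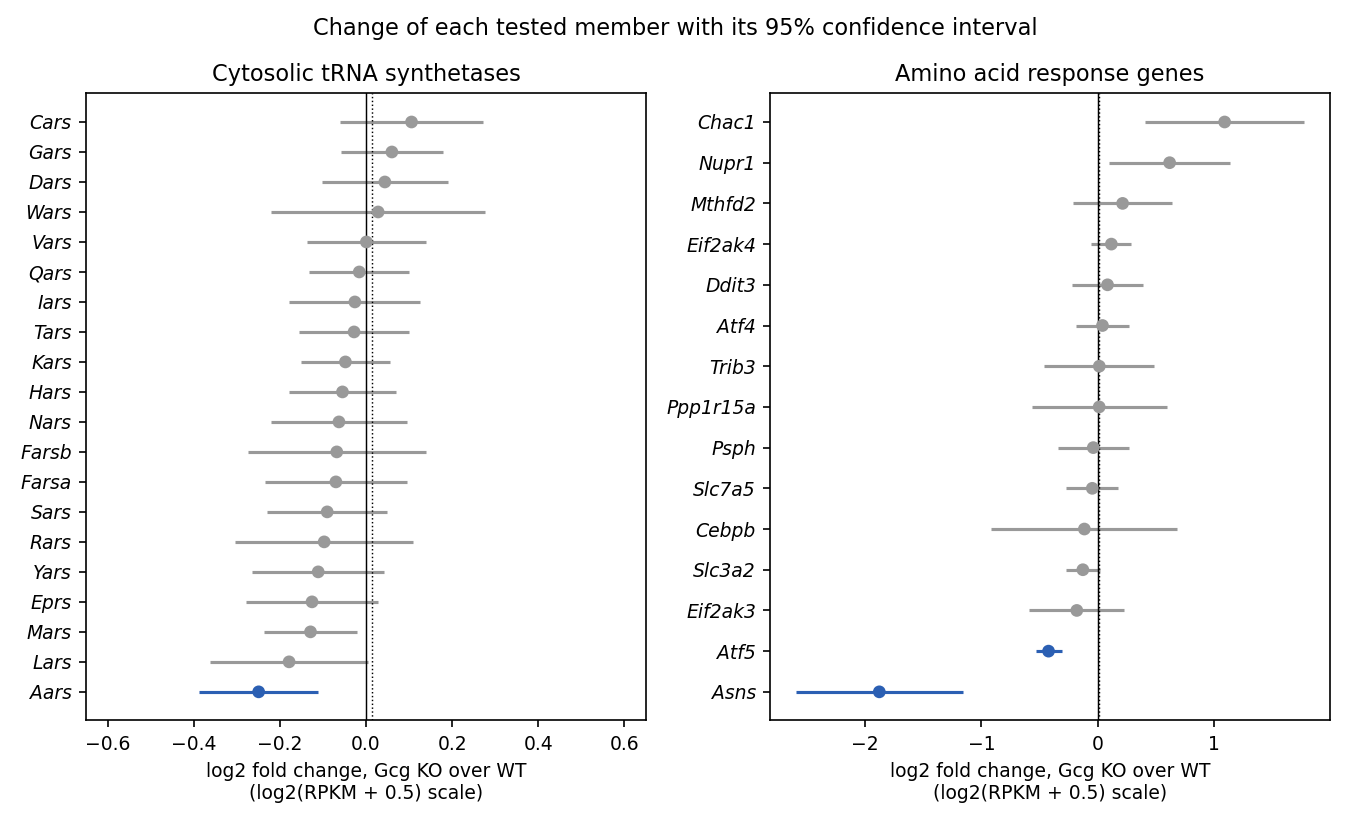
Log2 fold change (Gcg KO over WT, log2(RPKM + 0.5) scale, horizontal axis) of the 20 synthetases (left) and the 15 tested response genes (right), with the 95% confidence interval as a bar. Blue points passed the adjusted threshold downwards (Aars, Atf5, Asns) and grey points did not pass; the dotted line is the median of all tested genes (0.01), and the horizontal scales of the panels differ.

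Asns, the enzyme that makes asparagine from aspartate and glutamine and a classic ATF4 target, was the member that changed most. In WT its level ran from 1.69 RPKM (WT 2) through a median of 2.74 to 8.64 RPKM (WT 1). In Gcg KO it ran from 0.190 RPKM (Gcg KO 10) through a median of 0.368 to 1.04 RPKM (Gcg KO 11). Every Gcg KO library lay below every WT library. The mean fell from 3.61 ± 2.66 to 0.516 ± 0.346 RPKM (SD, n = 6 each), 7.0-fold on the RPKM scale, and the log2 fold change was -1.88 ± 0.33 SE (adjusted p = 0.00543). With the 3 libraries left out it was -2.01 (adjusted p = 0.0211). The size of the change depended on the pseudocount, at -2.52 with 0.1 and -1.47 with 1. Without WT 1, the highest library, it was -1.61.

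Few reads stand behind the Gcg KO levels of Asns. On its longest annotated transcript (2.016 kb) they correspond to about 5.23 to 23.0 reads and the WT levels to 41.8 to 253 reads. Asns (Entrez 27053) lies at chr6:7675165-7693209 in GRCm38. Its promoter window is shown whole because it belongs to the member with the largest change (chr6:7693160-7693459, minus strand, TGATGNAA core in capitals).
Asns promoter: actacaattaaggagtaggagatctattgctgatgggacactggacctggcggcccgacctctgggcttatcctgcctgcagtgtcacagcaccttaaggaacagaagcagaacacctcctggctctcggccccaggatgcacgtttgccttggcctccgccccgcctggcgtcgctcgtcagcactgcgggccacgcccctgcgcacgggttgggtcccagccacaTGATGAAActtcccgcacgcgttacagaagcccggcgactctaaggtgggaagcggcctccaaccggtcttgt

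Atf5, a relative of ATF4 whose translation is controlled in the same way and which is abundant in liver, gave the smallest p-value of the members. Its level was 116 to 134 RPKM in WT, with a median of 124 RPKM. In Gcg KO it was 87.6 to 94.9 RPKM, with a median of 93.2 RPKM. The groups were separated by a gap wider than the whole Gcg KO range. Atf5 fell from 124 ± 7.13 to 92.2 ± 2.62 RPKM, which gave -0.42 ± 0.05 SE on the log2 scale (adjusted p = 3.3e-04). With the 3 libraries left out this was -0.45 (adjusted p = 0.00548).

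Exons of Atf5 (Entrez 107503, chr7:44812256-44816658) overlap those of Nup62 and Il4i1 on the opposite strand. Nup62, a nuclear pore gene, averaged 3.11 RPKM for WT and 3.08 for Gcg KO (adjusted p = 0.991), and Il4i1 averaged 0.266 and 0.177 RPKM. Both were far below Atf5. The libraries were strand-specific per the labels, but the strand setting of the counting was not given in the sources used here. Atf5 has 2 annotated starts, and neither window holds the TGATGNAA core. Sequence outside these windows was not searched, and a link between the core and the change was not tested. Both windows are shown because Atf5 gave the smallest p-value of the members (chr7:44816609-44816908 and chr7:44815609-44815908, minus strand).
Atf5 promoter, upstream start: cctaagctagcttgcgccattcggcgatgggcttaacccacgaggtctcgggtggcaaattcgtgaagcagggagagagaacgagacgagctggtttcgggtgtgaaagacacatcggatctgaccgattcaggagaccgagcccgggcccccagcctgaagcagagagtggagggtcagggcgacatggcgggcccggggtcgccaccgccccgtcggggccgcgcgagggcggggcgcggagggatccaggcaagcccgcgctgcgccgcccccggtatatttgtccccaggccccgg
Atf5 promoter, downstream start: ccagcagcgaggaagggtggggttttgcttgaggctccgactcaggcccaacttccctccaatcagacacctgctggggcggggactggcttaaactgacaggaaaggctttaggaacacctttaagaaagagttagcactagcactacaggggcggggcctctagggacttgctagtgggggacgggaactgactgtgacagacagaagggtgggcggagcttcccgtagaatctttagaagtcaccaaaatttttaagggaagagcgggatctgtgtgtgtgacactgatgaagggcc

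**Figure D2:**
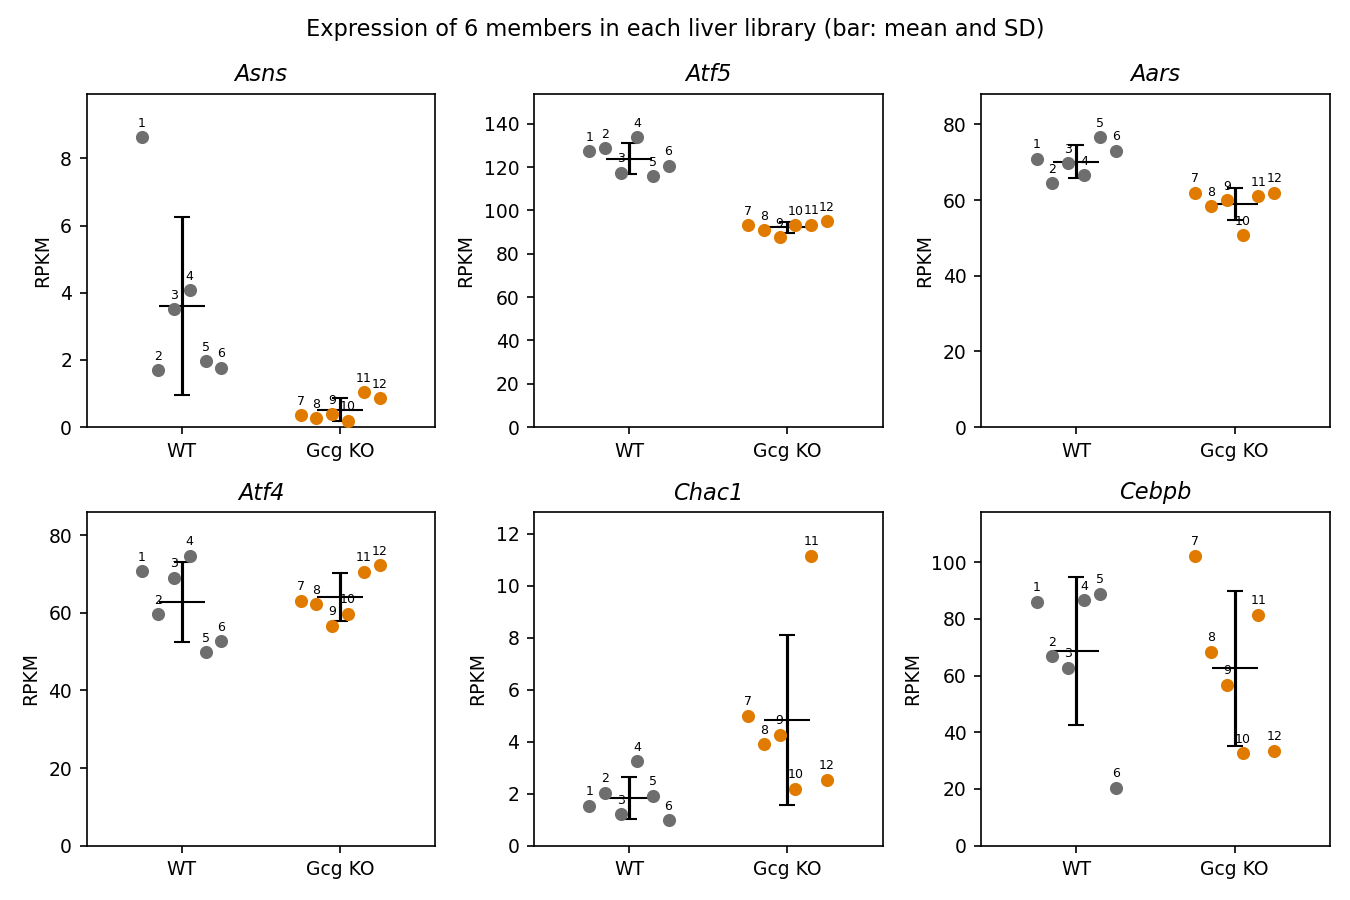
RPKM (vertical axes, from 0) of 6 members in each WT (grey) and Gcg KO (orange) library, numbered, with the group mean and SD in black. The groups do not overlap for Asns, Atf5 and Aars, overlap for Atf4, Chac1 and Cebpb, and libraries 6, 10 and 12 are the lowest for Cebpb.

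The kinases and Atf4 did not pass. Atf4 mRNA was 49.9 to 74.8 RPKM in WT (median 64.4) and 56.7 to 72.3 RPKM in Gcg KO (median 62.7). The Gcg KO range lay inside the WT range, and the means were 62.8 ± 10.3 and 64.1 ± 6.14 RPKM (log2 fold change 0.04 ± 0.11 SE, 95% confidence interval -0.19 to 0.27, adjusted p = 0.916). Eif2ak4 (GCN2) had 1.85 to 2.27 RPKM in WT and 1.89 to 2.55 RPKM in Gcg KO. Eif2ak3 (PERK) had 3.20 to 7.23 RPKM in WT (median 5.53) and 3.41 to 6.27 RPKM in Gcg KO (median 4.18), with overlapping groups (log2 fold change -0.18 ± 0.19 SE, adjusted p = 0.731). Ppp1r15a (GADD34), which directs the phosphatase that reverses eIF2 phosphorylation, had 3.65 to 10.5 RPKM in WT and 4.07 to 12.2 RPKM in Gcg KO.

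Among the transcription factors and cofactors below ATF4, the groups overlapped for every gene but Atf5. Ddit3 (CHOP), a factor of prolonged stress, had 3.75 to 6.25 RPKM in WT and 4.17 to 6.85 RPKM in Gcg KO. Its exons overlap those of Mars on the opposite strand, and the strand setting of the counting was not given. Unlike Atf5, Ddit3 lay below its neighbour, at means of 4.87 (WT) and 5.15 RPKM (Gcg KO) against 21.6 and 19.7 RPKM for Mars. Trib3, a pseudokinase that restrains ATF4, had 1.71 to 5.24 RPKM in WT and 2.48 to 3.99 RPKM in Gcg KO. The WT libraries spread more widely than the Gcg KO libraries for this gene. Nupr1, a small stress-induced chromatin protein, had 0 to 0.989 RPKM in WT (median 0.290) and 0.466 to 1.02 RPKM in Gcg KO (median 0.704). It was listed at 0 in WT 3 and WT 5, close to the limit of detection, and did not pass (log2 fold change 0.62 ± 0.24 SE, adjusted p = 0.212). Its log2 fold change depended on the pseudocount, at 1.34 with 0.1 and 0.39 with 1.

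Cebpb, a partner of ATF4, was low in 3 libraries drawn from both genotypes. It was 20.5 RPKM in WT 6, 32.6 RPKM in Gcg KO 10 and 33.5 RPKM in Gcg KO 12, and 56.8 to 102 RPKM in the other 9. Ppp1r15a was 3.65 to 4.59 RPKM in the same 3 libraries and 6.35 to 12.2 RPKM in the other 9, and Eif2ak3 was 3.20 to 3.66 against 3.67 to 7.23 RPKM. These are the 3 of the 35 tested members for which the 3 libraries held the 3 lowest values, which was so for 1.70% of all tested genes. The 3 libraries were set apart on the values of all tested genes, these members among them, so the count is not a separate finding. The summed level of 5 neutrophil markers was also lowest there, at 1.94 to 2.75 RPKM in the 3 libraries and 17.3 to 65.6 RPKM in the other 9. A sum does not show each marker, and the part of these cells in the Cebpb values was not tested. Exons of Cebpb overlap those of Tmem189 on the opposite strand, which fell from 6.59 to 4.41 RPKM (adjusted p = 2.4e-04).

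**Figure D3:**
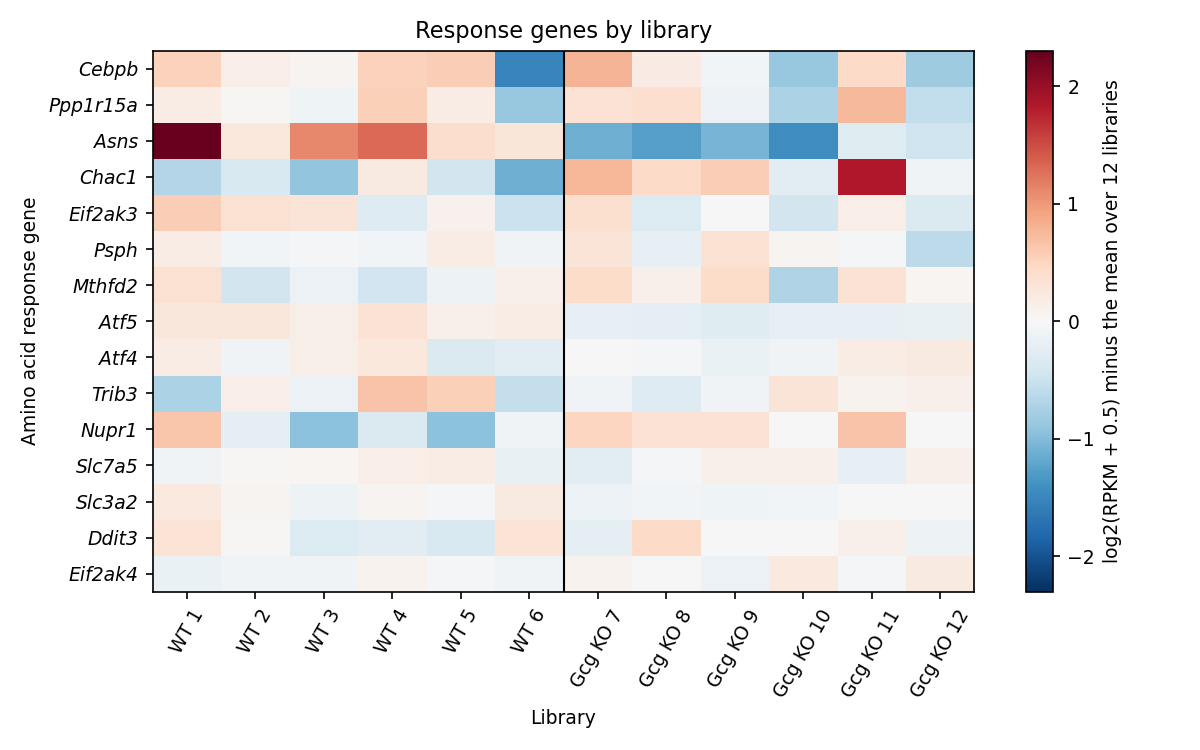
Deviation of log2(RPKM + 0.5) from the mean over 12 libraries (colour) for the 15 tested response genes (rows) in each library (columns), rows ordered by the difference of WT 6, Gcg KO 10 and Gcg KO 12 from the rest. Cebpb and Ppp1r15a are lowest in those 3 libraries, whereas Asns and Atf5 are higher in each WT library than in any Gcg KO library.

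Chac1, which degrades glutathione and is a common readout of the ATF4 pathway, was the member with the largest positive log2 fold change, except at a pseudocount of 0.1, where Nupr1 was higher (1.34 against 1.25). Its level was 0.976 to 3.24 RPKM in WT (median 1.73) and 2.19 to 11.2 RPKM in Gcg KO (median 4.09). In 4 Gcg KO libraries it lay above every WT library, and Gcg KO 10 and Gcg KO 12 lay within the WT range. The means were 1.82 ± 0.803 and 4.85 ± 3.27 RPKM, and the gene did not pass (log2 fold change 1.09 ± 0.32 SE, adjusted p = 0.0808). Without WT 6, Gcg KO 10 and Gcg KO 12, a choice made with earlier results known, it passed at a log2 fold change of 1.34 (adjusted p = 0.0427). It also passed without Gcg KO 10 alone (adjusted p = 0.0494) and with weights for the quality of each library (adjusted p = 0.0237). These were the 3 of 21 alternatives in which it passed, and over all 21 the adjusted p ran from 0.0237 to 0.164. Without Gcg KO 11, its highest library, the log2 fold change was 0.83 (adjusted p = 0.0827). Chac1 and Asns, which both carry the TGATGNAA core, had log2 fold changes of opposite sign. Of the 9 tested members with the core 2 passed, Asns and, at the edge of the threshold, Aars, against 3.87% of all tested genes. Atf5 also passed, and its windows hold no core. The members were chosen with earlier results of these data known, so this count is not independent evidence. A link between the core and the changes was not tested.

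The serine and one-carbon enzymes among the members had low levels in these livers, and those of Phgdh and Psat1 were under the limit for testing. Phgdh, which opens serine synthesis, was at most 0.137 RPKM in any library, and Psat1, the next step, was 0.0792 to 0.448 RPKM. Psph, the last step, had 2.33 to 2.86 RPKM in WT and 1.46 to 3.31 RPKM in Gcg KO. Mthfd2, a mitochondrial folate enzyme, had 0.554 to 1.33 RPKM in WT (median 0.820) and 0.389 to 1.42 RPKM in Gcg KO (median 1.19), and the groups overlapped (log2 fold change 0.21 ± 0.20 SE, adjusted p = 0.681). Pck2, the mitochondrial PEP carboxykinase, had 0.253 to 0.587 RPKM in WT and 0.356 to 0.645 RPKM in Gcg KO and was not tested.

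Of the transporters, Slc3a2, the shared heavy chain of several amino acid exchangers, was the only one above 1 RPKM. It had 10.3 to 13.2 RPKM in WT and 10.2 to 11.4 RPKM in Gcg KO and did not pass (adjusted p = 0.386). Slc7a5 (LAT1), its light chain for large neutral amino acids, had 0.606 to 0.906 RPKM in WT and 0.538 to 0.860 RPKM in Gcg KO. Slc7a11, the light chain of the cystine exchanger, was at most 0.0857 RPKM and was not tested.

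Most of the 20 synthetases varied little between libraries. Their median coefficient of variation within a group was 7.37% in WT and 7.81% in Gcg KO, against 13.6% and 14.2% over all tested genes and 29.3% and 25.1% for the response genes. These sets were not matched for expression level, and the tested genes reach down to a mean of 0.5 RPKM. In WT, Wars (tryptophan, 19.5%) and Rars (arginine, 14.7%) lay above the median of all tested genes. Aars and Tars (threonine) had the highest levels, at WT means of 70.2 ± 4.42 and 65.1 ± 4.22 RPKM, and their ranges overlapped. Nars (asparagine) followed at 39.2 ± 2.79 RPKM, below every Tars library. From Gars (glycine, 16.8 ± 0.891 RPKM) down to Vars (valine, 7.22 ± 0.560 RPKM), each gene overlapped the next in WT. Farsa and Farsb, the 2 subunits of the phenylalanine enzyme, had 7.96 ± 0.527 and 14.5 ± 1.85 RPKM in WT.

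**Figure D4:**
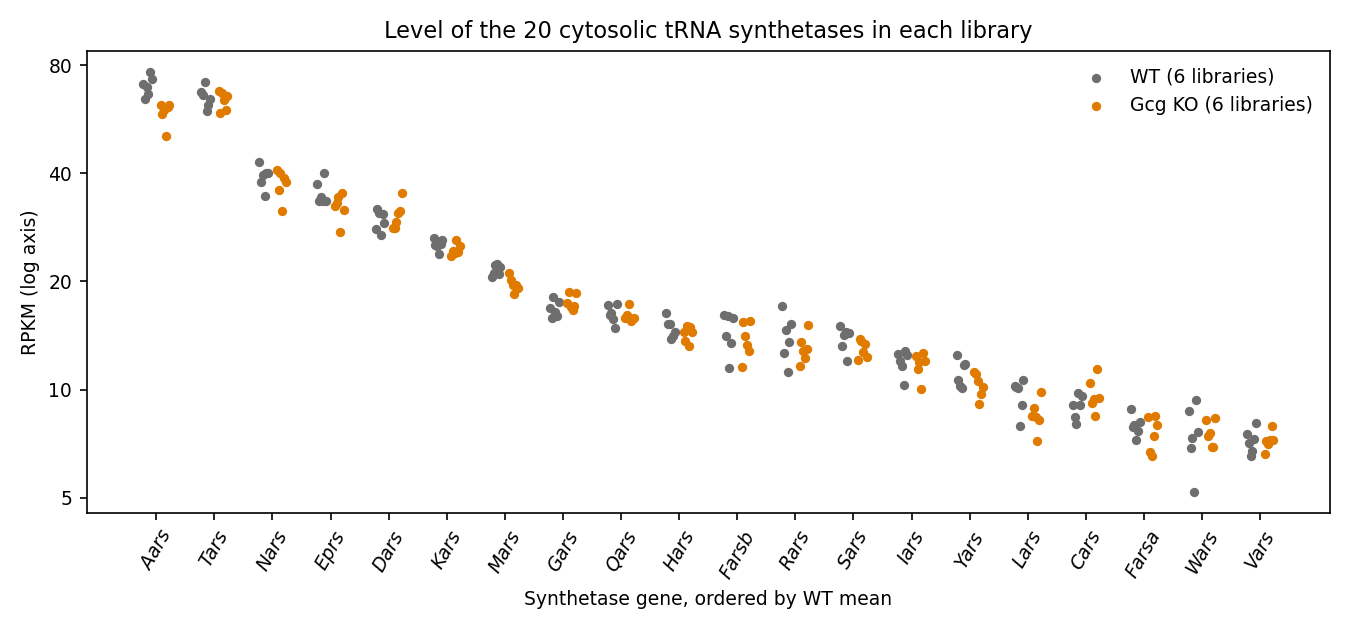
RPKM (log axis) of the 20 cytosolic synthetases in each WT (grey) and Gcg KO (orange) library, ordered by the WT mean. Aars and Tars are highest and Wars and Vars lowest, and the groups overlap for every gene except Aars.

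Aars, which charges tRNA with alanine, was the synthetase that passed. It was 64.4 to 76.7 RPKM in WT (median 70.3) and 50.7 to 61.9 RPKM in Gcg KO (median 60.6), with Gcg KO 10 the lowest and no overlap. Its mean fell to 59.0 ± 4.31 RPKM (log2 fold change -0.25 ± 0.06 SE, adjusted p = 0.0475). The call was lost when any library but WT 2 was left out (adjusted p = 0.0564 to 0.10, and 0.0490 without WT 2). Without the 3 libraries it was also lost (log2 fold change -0.20, adjusted p = 0.158). Exons of Aars overlap those of Exosc6 on the same strand, which had 2.40 and 2.50 RPKM (adjusted p = 0.925). The promoter window of Aars is shown because it holds the core on both sides of the start (chr8:111033592-111033891, plus strand, cores in capitals and read here from the opposite strand).
Aars promoter: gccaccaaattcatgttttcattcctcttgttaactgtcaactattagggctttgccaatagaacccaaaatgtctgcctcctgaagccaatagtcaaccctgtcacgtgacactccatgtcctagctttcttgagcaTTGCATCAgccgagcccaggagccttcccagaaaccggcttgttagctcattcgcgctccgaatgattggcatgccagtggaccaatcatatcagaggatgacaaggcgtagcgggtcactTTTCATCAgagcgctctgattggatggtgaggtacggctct

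The other 19 synthetases did not pass. Their 95% confidence intervals were taken gene by gene, with no adjustment for the number of genes. They also rest on a spread among libraries that may be technical, so they do not bound every change that was missed. The intervals of the 19 lay between -0.36 and 0.28, at most 1.29-fold lower or 1.21-fold higher in Gcg KO. Only that of Mars (-0.24 to -0.02) excluded 0. Lars (leucine) had 7.93 to 10.7 RPKM in WT (median 10.1) and 7.18 to 9.87 RPKM in Gcg KO (median 8.42), with overlapping groups (log2 fold change -0.18 ± 0.09 SE, adjusted p = 0.335). Mars (methionine) had 20.6 to 22.3 RPKM in WT (median 21.6) and 18.4 to 21.1 RPKM in Gcg KO (median 19.5), and 5 of 6 Gcg KO libraries lay below every WT library (log2 fold change -0.13 ± 0.05 SE, adjusted p = 0.213). These were the largest negative values after Aars. The sign was negative for 15 of the 20 and for 5186 of the 11347 tested genes.

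The largest positive values were those of Cars (cysteine), Gars and Dars (aspartate). Cars had 8.02 to 9.80 RPKM in WT (median 9.06) and 8.46 to 11.4 RPKM in Gcg KO (median 9.46; log2 fold change 0.11 ± 0.08 SE, adjusted p = 0.576). Gars had 15.8 to 18.1 RPKM (median 16.7) and 16.6 to 18.7 RPKM (median 17.2; log2 fold change 0.06 ± 0.06 SE, adjusted p = 0.680). Dars had 26.9 to 31.8 RPKM (median 30.0) and 28.2 to 35.4 RPKM (median 30.1; log2 fold change 0.04 ± 0.07 SE, adjusted p = 0.832). In all of them the groups overlapped. The sum over the 20 synthetases averaged 441 ± 19.3 RPKM over the WT libraries and 418 ± 15.9 RPKM over the Gcg KO libraries, with ranges of 408 to 462 and 389 to 434 RPKM that overlapped. Gcg KO 10 was the lowest Gcg KO library for 12 of the 20 genes, and WT 4 the lowest WT library for 12.

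Many cytosolic synthetases are held in a large multienzyme complex. Of its 8 synthetases 0 passed in limma and 1 had an unadjusted p below 0.05, against 15.7% of all tested genes (median log2 fold change -0.07), and of the 12 others 1 passed (median -0.06). The complex scaffolds Aimp1, Aimp2 and Eef1e1 and the tRNA exporter Xpot did not pass either. Of the 17 mitochondrial synthetases, which charge tRNA for translation inside mitochondria, 0 passed in limma and 3 had an unadjusted p below 0.05, a share near the 15.7% of all tested genes. Lars2 stood far above the other 16, at 1311 to 2813 RPKM over the 12 libraries, while Iars2, the next, was at most 21.1 RPKM. How reads that match more than 1 place were counted was not given in the sources used here, and the Lars2 level is uncertain.

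Other genes of the pathway gave a mixed picture. Of 24 further ATF4 targets 17 were tested, and 1 fell, 1 rose and 15 did not pass, against 3.87% of all tested genes that passed. An unadjusted p below 0.05 was found for 7 of the 17, against 15.7% of all tested genes. Cth, which makes cysteine from cystathionine, fell from 312 ± 45.7 to 118 ± 16.9 RPKM, with all 6 Gcg KO libraries below every WT library (log2 fold change -1.40 ± 0.11 SE, adjusted p = 1.0e-05). Slc6a9, a glycine transporter, rose from 7.93 ± 1.83 to 11.8 ± 1.41 RPKM (log2 fold change 0.56 ± 0.13 SE, adjusted p = 0.0236), and 4 Gcg KO libraries lay above every WT library. The call of Slc6a9 was lost without WT 1, WT 4, WT 5, Gcg KO 8, Gcg KO 9 or Gcg KO 10 (adjusted p up to 0.0558). Among 13 genes of eIF2, its kinases, its exchange factor and GCN1, 0 passed in limma and 0 had an unadjusted p below 0.05. Among 12 chaperones and sensors of the unfolded protein response, 0 passed and 1 had an unadjusted p below 0.05, against 15.7% of all tested genes.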

How the data were processed

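The table holds RPKM values that the authors deposited for 24475 genes in 12 liver libraries, 6 per group. Per the submitters' processing notes, CASAVA 1.8.2 and FastQC were used, with build GRCm38 (aligner, counter and annotation: not given in the sources used here). Of the 184325 values above 0, 1109 lay below 0.0001 RPKM, so the values are not simple multiples of whole reads, and no count test was run.

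Values were tested as log2(RPKM + 0.5) for the 11347 genes with a mean of at least 0.5 RPKM, with limma 3.58.1 under R 4.3.3. The fit took genotype as its single term, used all 12 libraries and let the prior variance follow the mean. Depth came from the lowest common step of RPKM times transcript length (GENCODE M21) in genes with a single transcript. RefSeq (GRCm38.p6) gave coordinates and promoters for Entrez identifiers, of which 24375 matched. The fit was tested on simulated data.

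The members, gene lists and tests were chosen with earlier results of these data known. Members are described with their test where they passed, were among the 3 largest rises or falls of their set, or are Asns, Aars or Atf4; genes of the other lists are named where they passed. Others named were chosen after their values were seen. Alternatives were other pseudocounts, filters, scalings and weights, and leaving out libraries.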

Additional observations from a re-analysis of the deposited data

Results flagged for a closer look

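In 76 sets of 6 libraries (35 members and 3 further genes in each group), 4 single values stood away from the other 5 by a larger share of the whole range than Dixon's 95% limit, which chance passes in about 5% of sets. Asns was 8.64 RPKM in WT 1, and the next WT library had 4.08 RPKM. Chac1 was 11.2 RPKM in Gcg KO 11, and the next Gcg KO library had 5.01 RPKM. Aars was 50.7 RPKM in Gcg KO 10, below the next at 58.3 RPKM. Qars, the glutamine enzyme, was 17.3 RPKM in Gcg KO 9, above the next at 16.1 RPKM.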

How the results depend on the processing

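The comparison was repeated under 21 alternatives, 12 of which left out 1 library each. Asns and Atf5 passed with a negative sign in all 21 (adjusted p = 0.00244 to 0.0211 for Asns and 2.1e-04 to 0.00548 for Atf5). The count of synthetases that passed was 0 under quantile normalization, median centring, a fit with no mean-variance trend, and without WT 6, Gcg KO 10 and Gcg KO 12. Leaving out 1 library gave 0 to 1 synthetases, 2 to 3 response genes and 277 (without WT 3) to 471 genes in all, against 439. Without the 3 libraries 3 response genes passed, as with array weights. The cause was not tested. Under leaving out 1 library the median log2 fold change was -0.08 to -0.04 for the synthetases and -0.09 to 0.05 for the response genes. The sign of 13 of the 35 members changed under at least 1 alternative, and none of these passed in the comparison of all libraries. The log2 fold change of Atf4 was -0.027 without the 3 libraries, and -0.022 (without WT 5) to 0.094 when 1 library was left out, with a negative value also without WT 6. That of Dars was -0.0058 with array weights and -0.018 without the 3 libraries. Nupr1 fell below 0.5 RPKM in several alternatives and gave no value there, as did Mthfd2, Slc7a5 and Fgf21 at a minimum of 2 RPKM. No paired analysis was possible because the groups share no replicate numbers. Depth limits Asns in the Gcg KO libraries, where its levels correspond to about 5.23 to 23.0 reads. Reads were not estimated for Chac1 and Nupr1, and Nupr1 had a mean close to 0.5 RPKM.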

Other observations

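Fgf21, a hormone that liver secretes under ATF4 and PPAR-alpha control, was chosen here after its values were seen. It had 0.0899 to 0.779 RPKM in WT (median 0.344) and 0.514 to 2.79 RPKM in Gcg KO (median 1.604), and 4 Gcg KO libraries lay above every WT library. The 2 that did not were Gcg KO 10 and Gcg KO 12, as for Chac1. Fgf21 did not pass over all libraries (log2 fold change 1.06 ± 0.28 SE, adjusted p = 0.0552 in limma) and passed without WT 6, Gcg KO 10 and Gcg KO 12 (log2 fold change 1.35, adjusted p = 0.00309). Over its alternatives the adjusted p ran from 0.00309 to 0.122.

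Several further ATF4 targets, also chosen after their values were seen, were lowest in the same 3 libraries as Cebpb. Of the 17 tested, this held for Ddit4, Atf3, Gdf15, Slc38a2 and Herpud1, and over all tested genes for 1.70%. The 3 libraries were set apart on the values of all tested genes, these targets among them. The count therefore describes that difference and is not a separate finding about ATF4 targets. The 3 libraries held the 3 highest values for 5.70% of all tested genes. Ddit4, an inhibitor of mTORC1, was 1.72 to 2.82 RPKM in the 3 and 11.7 to 42.7 RPKM in the other 9. Atf3, a stress-induced factor, was 0.345 to 0.444 RPKM against 3.31 to 31.1 RPKM. Gdf15, a secreted stress hormone, was 2.24 to 3.06 RPKM against 8.77 to 71.1 RPKM. Slc38a2 (SNAT2), a carrier of small neutral amino acids, was 16.9 to 20.6 RPKM against 31.8 to 117 RPKM. Herpud1, a protein of endoplasmic reticulum degradation, was 120 to 176 RPKM against 289 to 479 RPKM. For Asns, WT 6 was the second lowest WT library and Gcg KO 10 the lowest Gcg KO library, whereas Gcg KO 12 was the second highest.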
